A study of Homo sapiens with 6 samples.

Results

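Aminoacyl-tRNA synthetases attach each amino acid to its transfer RNA (tRNA), the step that gives the genetic code its meaning. Transcript levels of 36 genes for these enzymes were followed in a human liver cancer cell line in which the ubiquitin ligase TRIM15 had been knocked down. The genes were taken by name and not by their values: 20 cytosolic enzymes and 16 mitochondrial enzymes, the latter having names that end in 2. They are 36 of the 58735 gene rows of the deposited table, and all 36 were among the 14847 genes with enough signal to be tested. The cells were Huh7, an established hepatocellular carcinoma line, grown in RPMI-1640 with fetal bovine serum. Each group had 3 libraries of mRNA-enriched RNA: shcontrol (a control short hairpin RNA, called control here) and shTRIM15 (a hairpin against TRIM15, called knockdown here). How many hairpins were used, and whether replicates were separate cultures, the labels do not say, so p-values measure the spread between these libraries, which may be technical.

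As background, cells have one set of these enzymes for protein synthesis in the cytosol and another, encoded by separate nuclear genes, for the tRNAs made inside mitochondria. GARS and KARS serve both places from a single gene. Several cytosolic enzymes are held together in a large multi-synthetase complex with the scaffold proteins AIMP1, AIMP2 and EEF1E1. The enzymes fall into class I and class II by the fold of their catalytic domain. Many of the cytosolic genes are known targets of ATF4, the transcription factor that cells make when amino acids run short or the endoplasmic reticulum is stressed.

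Depth was 17332508 to 19556855 reads per library, as recovered from the values. TRIM15 itself was 5.17, 5.09 and 4.88 FPKM (fragments per kilobase of transcript, scaled to library size) in control replicates 1 to 3 and 3.23, 2.11 and 2.51 FPKM in knockdown replicates 1 to 3. It stood at 51.8% of control without overlap between groups (limma log2 fold change -0.75, SE 0.106, adjusted p = 0.00416). An exact permutation test of mean FPKM, two-sided, gave p = 0.1, which is as low as 3 against 3 libraries can go. All 8 liver markers were expressed (summed 1518 to 1558 FPKM in control and 1514 to 1546 FPKM in knockdown libraries). Of 12 fibroblast, endothelial and immune cell markers, 11 lay below 0.5 FPKM in every library.

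Cytosolic enzymes had the higher transcript levels. Their control means ran from 7.39 FPKM for CARS to 154 FPKM for AARS, with a median of 37.6 FPKM over the 20 genes. AARS, the alanine enzyme, was the most abundant at 155, 156 and 151 FPKM in control libraries, followed by the asparagine enzyme NARS at 79.5 ± 0.870 FPKM (SD, n = 3 here and throughout). Its level was well clear of NARS, whereas CARS and the tryptophan enzyme WARS at the bottom were within the spread of each other. WARS was 7.73, 7.19 and 7.51 FPKM in control and 7.35, 7.08 and 7.41 FPKM in knockdown libraries, and its groups overlapped (adjusted p = 0.599).

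The 16 mitochondrial enzymes ran from 1.15 FPKM for SARS2 to 36.5 FPKM for IARS2, with a median of 6.93 FPKM. IARS2, the isoleucine enzyme of mitochondria, was 36.4, 35.9 and 37.2 FPKM in control and 36.7, 36.8 and 37.7 FPKM in knockdown libraries, with overlapping groups (adjusted p = 0.567). SARS2, the serine enzyme, was 0.959, 1.02 and 1.47 FPKM in control and 0.870, 1.30 and 1.15 FPKM in knockdown libraries. These SARS2 values rest on 53 to 86 reads per library, and the difference of -0.026 on the log2 scale (SE 0.122, adjusted p = 0.911) could not be resolved at this depth.

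**Figure D1:**
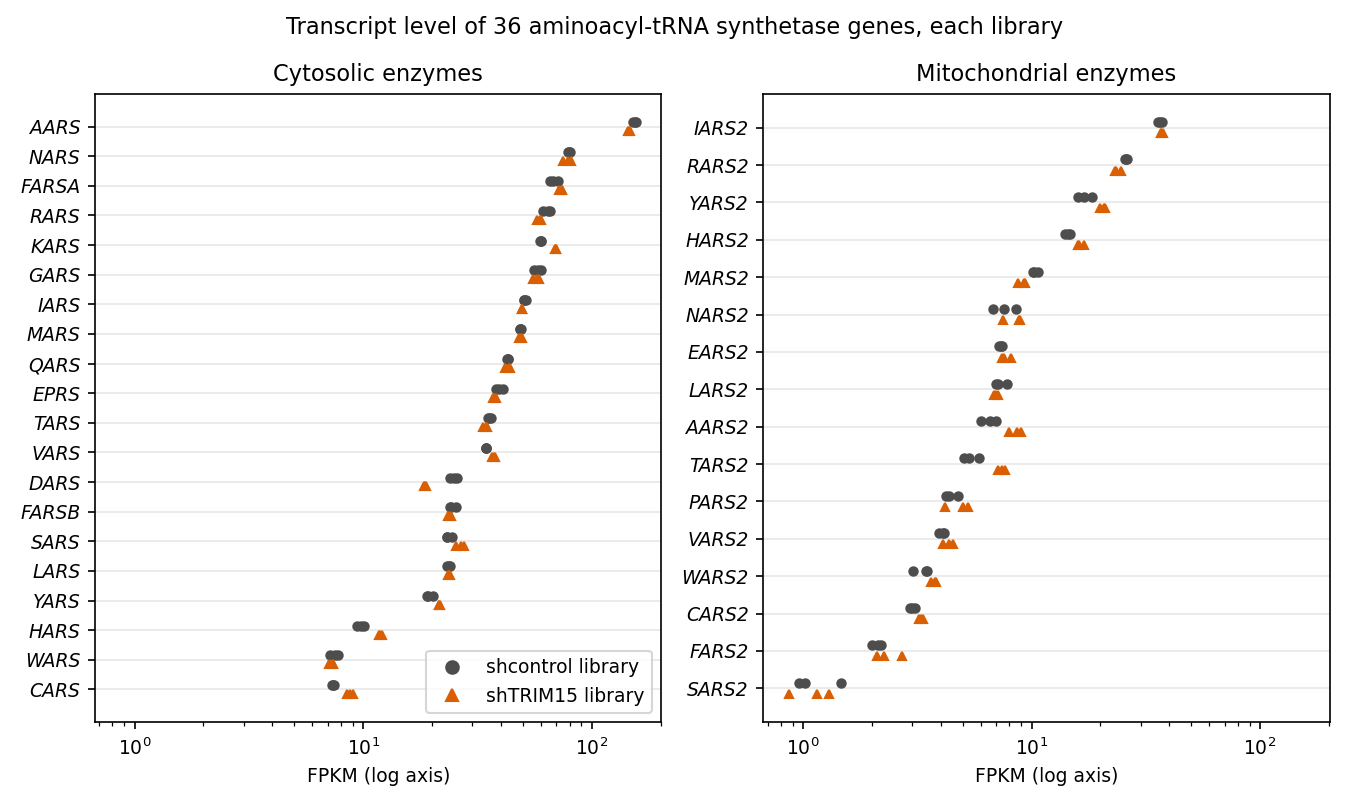
FPKM of each of the 36 synthetase genes in every library on a log axis, cytosolic enzymes on the left and mitochondrial enzymes on the right, ordered by control mean; circles are the 3 control and triangles the 3 knockdown libraries. Control means span 7.39 to 154 FPKM among cytosolic and 1.15 to 36.5 FPKM among mitochondrial genes, and the triangles of DARS sit left of its circles.

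Individual synthetase genes differed between knockdown and control in both directions, by small amounts. Of the 36 genes, 10 rose and 5 fell past an adjusted p of 0.05 (41.7%), and the largest changes were a fall of DARS to 75.0% of control and a rise of TARS2 to 137% of control. Over all 14847 genes tested, 19.0% passed, 8.93% higher (1326 genes) and 10.1% lower (1498 genes). That background depends on expression level: 39.6% of protein-coding genes with a mean of 20 to 200 FPKM passed, 23.7% of those with 2 to 20 FPKM, and 22.8% of all protein-coding genes. Groups did not overlap for 21 of the 36 members, beside 37.8% of all genes tested. Rescaling every library to the same sum moved the split of all calls from 47.0% to 62.2% higher, and gave 7 higher and 1 lower among cytosolic members and 4 higher and 1 lower among mitochondrial members.

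Among the 20 cytosolic enzymes, 6 rose (CARS, HARS, KARS, SARS, VARS and YARS) and 3 fell (AARS, DARS and RARS). The share called, 9 of 20, was near the 39.6% of protein-coding genes in the level range that holds most of them, so it does not set the group apart. Their median log2 fold change was -0.0066, beside 0.0014 over all genes tested, and it lay between -0.019 and 0.024 under the 15 alternative settings. The highest came with libraries scaled to the same sum, where the median over all genes was 0.025. In the deposited scaling, the summed level of the 20 genes was 871.2 to 881.7 FPKM in control and 874.1 to 881.3 FPKM in knockdown libraries. In bulk RNA such relative values cannot tell less RNA per cell from fewer cells of a type.

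**Figure D2:**
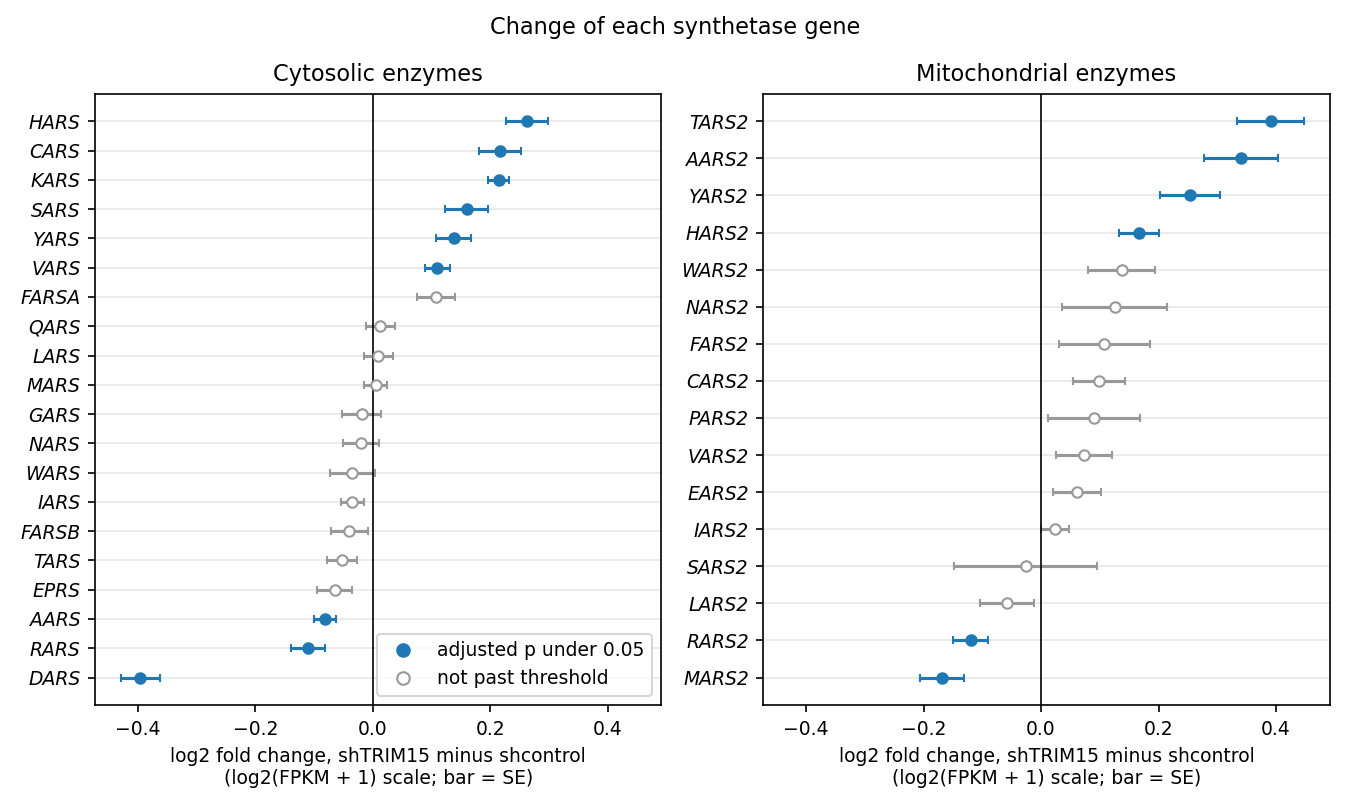
Log2 fold change (knockdown minus control, log2(FPKM + 1) scale) of every synthetase gene with its standard error, cytosolic enzymes on the left and mitochondrial on the right; filled points passed an adjusted p of 0.05. Values run from -0.40 for DARS to 0.26 for HARS on the left and from -0.17 for MARS2 to 0.39 for TARS2 on the right, where 12 of 16 lie above 0.

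DARS, which charges tRNA with aspartate (ENSG00000115866, chromosome 2, 135906677 to 135986100 on GRCh38), had the largest change of the cytosolic enzymes. It was 23.9, 25.1 and 25.8 FPKM in control replicates 1 to 3 and 18.5, 18.9 and 18.6 FPKM in knockdown replicates 1 to 3. The lowest control library was above all 3 knockdown libraries, and the mean went from 24.9 ± 0.981 to 18.7 ± 0.212 FPKM (log2 fold change -0.40 with SE 0.0331, adjusted p = 0.000626). DARS passed the threshold under all 15 alternative settings.

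KARS, the lysine enzyme (chromosome 16, 75627474 to 75648643), moved the other way by a smaller amount. Its level was 59.8, 59.2 and 59.9 FPKM in control and 69.0, 69.6 and 69.6 FPKM in knockdown libraries, 116% of control (log2 fold change 0.21 with SE 0.0178, adjusted p = 0.000617). The spread within each group was under 1 FPKM, so the groups stood far apart relative to it.

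HARS, the histidine enzyme (chromosome 5, 140673904 to 140691862), was 9.81, 10.1 and 9.37 FPKM in control and 11.7, 11.8 and 12.1 FPKM in knockdown libraries. This was the largest rise among the cytosolic enzymes, to 122% of control (log2 fold change 0.26 with SE 0.0358, adjusted p = 0.00370). CARS, the cysteine enzyme (chromosome 11, 3000922 to 3057613), was 7.41, 7.46 and 7.31 FPKM in control and 8.76, 8.46 and 9.06 FPKM in knockdown libraries, 118% of control (log2 fold change 0.22 with SE 0.0357, adjusted p = 0.00746). KARS, HARS and CARS passed under all 15 alternatives, and none of the 3 had overlapping groups.

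SARS, VARS and YARS, the serine, valine and tyrosine enzymes, rose by smaller amounts. SARS was 23.4, 23.4 and 24.5 FPKM in control and 27.7, 26.8 and 25.5 FPKM in knockdown libraries (log2 fold change 0.16 with SE 0.0371, adjusted p = 0.0260). VARS was 34.6, 34.3 and 34.4 FPKM in control and 36.8, 37.2 and 37.9 FPKM in knockdown libraries (log2 fold change 0.11 with SE 0.0215, adjusted p = 0.0140). YARS was 20.2, 19.0 and 19.3 FPKM in control and 21.4, 21.4 and 21.8 FPKM in knockdown libraries (log2 fold change 0.14 with SE 0.0293, adjusted p = 0.0194). In each of these genes the lowest knockdown library was above the highest control library.

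AARS and RARS, the alanine and arginine enzymes, fell slightly from high levels. AARS was 146, 144 and 147 FPKM in knockdown libraries against a control mean of 154 ± 2.49 FPKM (log2 fold change -0.081 with SE 0.0193, adjusted p = 0.0286). RARS was 61.5, 64.2 and 65.7 FPKM in control and 59.8, 59.4 and 57.8 FPKM in knockdown libraries (log2 fold change -0.11 with SE 0.0291, adjusted p = 0.0400). Neither gene had overlapping groups, and both were among the calls most easily lost under other settings.

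The other 11 cytosolic genes did not pass. FARSA, the catalytic subunit of the phenylalanine enzyme, came nearest at 71.1, 65.6 and 67.6 FPKM in control and 72.0, 73.9 and 74.5 FPKM in knockdown libraries, with an adjusted p of 0.0610 (0.00128 with voom on the recovered reads, 0.0221 with libraries scaled to the same sum and 0.0213 without control replicate 1, all past the threshold). Its partner subunit FARSB had a log2 fold change of -0.040 (adjusted p = 0.441). EPRS, GARS, IARS, LARS, MARS, NARS, QARS, TARS and WARS lay between -0.064 and 0.013 on the log2 scale, with adjusted p of 0.270 or more except for EPRS (0.185) and TARS (0.211).

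**Figure D3:**
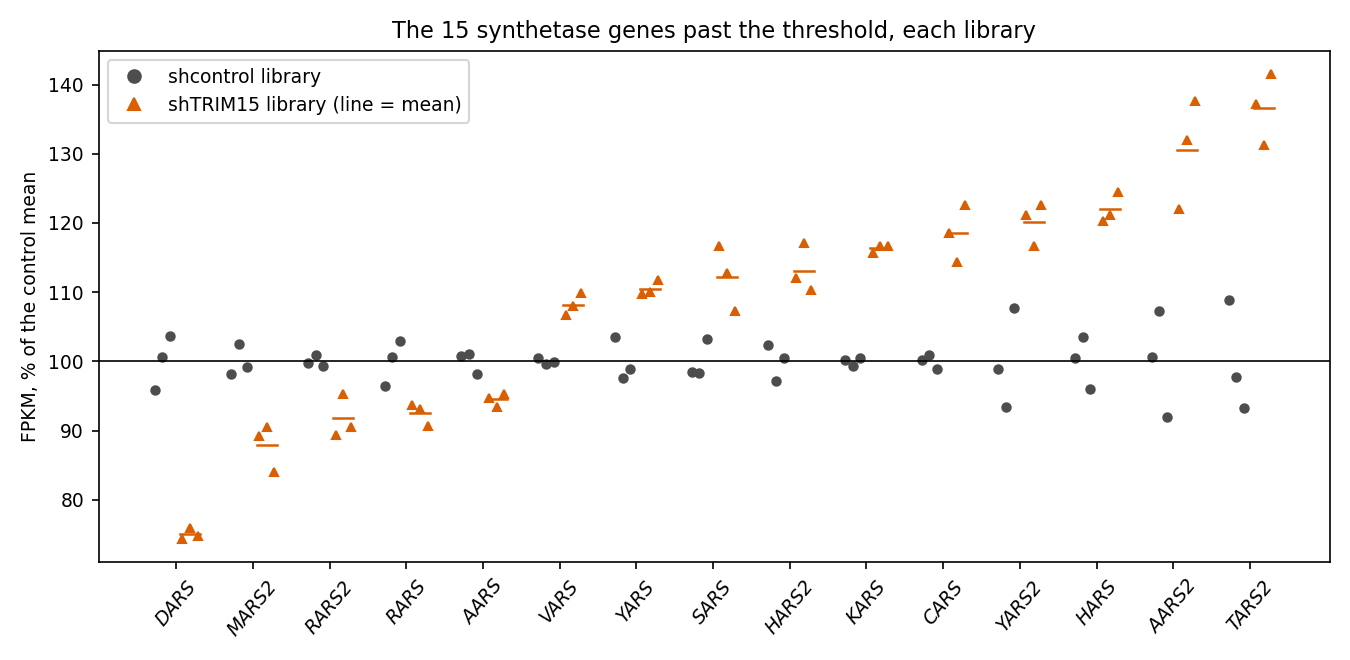
Level of the 15 synthetase genes past the threshold in each library, as a percent of that gene's control mean, ordered by knockdown mean; circles are control libraries, triangles knockdown libraries and short lines knockdown means. Knockdown means run from 75.0% for DARS to 137% for TARS2, and in none of the 15 genes do circles and triangles overlap.

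Genes of the multi-synthetase complex were called in both directions. Of its 8 synthetase genes, 1 rose (KARS), 2 fell (DARS and RARS) and 5 did not pass (EPRS, IARS, LARS, MARS and QARS). The share called, 37.5%, was near the 39.6% of protein-coding genes with a mean of 20 to 200 FPKM, so it does not set the complex apart. The RARS call was kept under only 5 of 15 alternatives. KARS and DARS are closely related class II enzymes of this complex and moved in opposite directions, without overlap between groups in either. The scaffold genes AIMP1 (17.4 to 17.7 FPKM, adjusted p = 0.757) and AIMP2 (18.4 to 19.4 FPKM, adjusted p = 0.458) did not pass. EEF1E1, the third scaffold gene, which shares 18.7% of its exon bases on the same strand with EEF1E1-BLOC1S5, was 10.1, 8.71 and 8.55 FPKM in control and 8.25, 6.58 and 6.87 FPKM in knockdown libraries and did not pass either (log2 fold change -0.30, adjusted p = 0.0595), though it did with voom (0.00542), with a filter at 1 FPKM (0.0462) and without knockdown replicate 1 (0.0252). By catalytic class, 4 of 18 class I genes rose and 3 fell, and 6 of 17 class II genes rose and 2 fell (EPRS, which holds an enzyme of each class, was in neither count). The shares called were 38.9% and 47.1%. Among protein-coding genes they were 23.7% at a mean of 2 to 20 FPKM and 39.6% at 20 to 200 FPKM. A difference between the classes was not tested.

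Of the 16 mitochondrial enzymes, 4 rose (AARS2, HARS2, TARS2 and YARS2) and 2 fell (MARS2 and RARS2). The share called was 37.5%, beside 23.7% of protein-coding genes with a mean of 2 to 20 FPKM. Their median log2 fold change was 0.094 and 12 of 16 lay above 0. That median stayed above 0 under all 15 alternatives (0.052 to 0.139). The highest came with voom, where the median over all genes was 0.023. In the deposited scaling, their summed level was 155.7 to 158.4 FPKM in control and 162.1 to 168.2 FPKM in knockdown libraries, groups that did not overlap.

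TARS2, the mitochondrial threonine enzyme (ENSG00000143374, chromosome 1, 150487364 to 150507609), had the largest rise of all 36 genes. It was 5.92, 5.31 and 5.07 FPKM in control replicates 1 to 3 and 7.45, 7.13 and 7.69 FPKM in knockdown replicates 1 to 3. The mean went from 5.43 ± 0.437 to 7.42 ± 0.281 FPKM (log2 fold change 0.39 with SE 0.0570, adjusted p = 0.00477). AARS2, the mitochondrial alanine enzyme (chromosome 6, 44299654 to 44313326), was 6.59, 7.03 and 6.02 FPKM in control and 7.99, 8.64 and 9.01 FPKM in knockdown libraries, 131% of control (log2 fold change 0.34 with SE 0.0623, adjusted p = 0.0110). Both genes passed under all 15 alternatives, although the knockdown replicates of AARS2 spanned about 1 FPKM.

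YARS2, the mitochondrial tyrosine enzyme (chromosome 12, 32727490 to 32755902), was 17.0, 16.0 and 18.5 FPKM in control and 20.8, 20.01 and 21.0 FPKM in knockdown libraries, 120.2% of control (log2 fold change 0.25 with SE 0.0508, adjusted p = 0.0153). HARS2, the mitochondrial histidine enzyme (chromosome 5, 140691426 to 140699318), was 14.8, 14.0 and 14.5 FPKM in control and 16.2, 16.9 and 15.9 FPKM in knockdown libraries (log2 fold change 0.17 with SE 0.0338, adjusted p = 0.0160). In both, every knockdown library was above every control library.

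MARS2, which charges mitochondrial tRNA with methionine (chromosome 2, 197705369 to 197708387), fell to 87.9% of control. It was 10.2, 10.6 and 10.3 FPKM in control and 9.24, 9.37 and 8.70 FPKM in knockdown libraries (log2 fold change -0.17 with SE 0.0378, adjusted p = 0.0232). RARS2, the mitochondrial arginine enzyme (chromosome 6, 87514378 to 87590003), was 25.8, 26.1 and 25.7 FPKM in control and 23.1, 24.7 and 23.4 FPKM in knockdown libraries (log2 fold change -0.12 with SE 0.0299, adjusted p = 0.0336). RARS and RARS2 were the only counterpart pair of the 16 in which both genes fell past the threshold. Each of these calls was kept under only 5 of 15 alternatives. With a library left out, RARS passed only without control replicate 1 and RARS2 only without knockdown replicate 2. In the histidine and tyrosine pairs both genes rose past the threshold.

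Among the 10 mitochondrial genes that did not pass, CARS2 and WARS2 had groups without overlap. So did EPRS, FARSA, IARS and TARS among the 11 cytosolic genes that did not pass. Over all genes tested, groups did not overlap in 37.8%. CARS2, the counterpart of CARS, was 3.08, 2.93 and 3.002 FPKM in control and 3.34, 3.22 and 3.30 FPKM in knockdown libraries (adjusted p = 0.172). VARS2, the counterpart of VARS, was 3.96, 4.09 and 4.15 FPKM in control and 4.09, 4.55 and 4.36 FPKM in knockdown libraries (adjusted p = 0.349). EARS2, FARS2, IARS2, LARS2, NARS2, PARS2, SARS2 and WARS2 had log2 fold changes of -0.058 to 0.14 and adjusted p of 0.143 or more.

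With 5 libraries in place of 6, fewer genes passed over the whole table (1770 to 2339, against 2824), and 9 of the 15 member calls missed the threshold at least 1 time while keeping their direction. Over the 6 fits that each left out a library, the log2 fold change was 0.14 to 0.18 for HARS2, 0.21 to 0.31 for YARS2, 0.10 to 0.12 for VARS and -0.19 to -0.14 for MARS2. It was 0.13 to 0.19 for SARS, 0.12 to 0.16 for YARS, -0.094 to -0.073 for AARS, -0.14 to -0.089 for RARS and -0.15 to -0.10 for RARS2. Leaving out a library ended the call of HARS2 without control replicate 2 (0.0542) or knockdown replicate 2 (0.0524), the values in parentheses being the limma adjusted p. It ended that of YARS2 without knockdown replicate 1 (0.0530) or knockdown replicate 3 (0.0577) and that of VARS without control replicate 2 (0.0511) or knockdown replicate 3 (0.0556). For MARS2 this happened without control replicate 2 (0.0749), control replicate 3 (0.0560), knockdown replicate 1 (0.0554) or knockdown replicate 3 (0.0680). SARS was lost without control replicate 1 (0.0709), control replicate 2 (0.0812), knockdown replicate 1 (0.0770) or knockdown replicate 2 (0.0789). YARS was lost without control replicate 2 (0.0640), control replicate 3 (0.0570), knockdown replicate 1 (0.0547), knockdown replicate 2 (0.0568) or knockdown replicate 3 (0.0703). AARS was lost without control replicate 1 (0.0700), control replicate 2 (0.0952), knockdown replicate 1 (0.0770), knockdown replicate 2 (0.0964) or knockdown replicate 3 (0.0652). RARS was lost without control replicate 2 (0.110), control replicate 3 (0.0963), knockdown replicate 1 (0.0791), knockdown replicate 2 (0.0910) or knockdown replicate 3 (0.122), and RARS2 without control replicate 1 (0.0722), control replicate 2 (0.0977), control replicate 3 (0.0708), knockdown replicate 1 (0.102) or knockdown replicate 3 (0.106). The count of cytosolic calls fell from 9 to 4 without control replicate 2 and to 5 without knockdown replicate 1, 2 or 3. That of mitochondrial calls fell from 6 to 3 without control replicate 2, knockdown replicate 1 or knockdown replicate 3.

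Setting each cytosolic gene against its mitochondrial counterpart within a library showed which compartment had the higher FPKM for an amino acid. FPKM divides by the listed length, which for all 36 members is the union of exons and not the length of a transcript made. These ratios therefore depend on those lengths. In control libraries the cytosolic gene had the higher FPKM in 15 of 16 pairs. HARS and HARS2 were the exception, with HARS at 0.664, 0.719 and 0.646 times HARS2 in control and 0.726, 0.700 and 0.762 times in knockdown libraries. This order rests on the listed lengths, 7853 bases for HARS and 3736 for HARS2. By reads HARS was higher, at 1393, 1400 and 1336 in control libraries against 998, 926 and 984 for HARS2. The glutamate and proline pairs both use EPRS, which carries both activities in a single protein.

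The ratio of TARS to TARS2 was 6.14, 6.71 and 6.92 in control and 4.69, 4.71 and 4.51 in knockdown libraries. TARS2 had risen, and TARS was 36.3, 35.6 and 35.1 FPKM in control and 34.9, 33.6 and 34.6 FPKM in knockdown libraries (adjusted p = 0.211). The ratio of AARS to AARS2 was 23.6 ± 1.47 in control and 17.1 ± 1.05 in knockdown libraries, with AARS lower and AARS2 higher. MARS to MARS2 went the other way, with ratios of 4.78, 4.59 and 4.76 in control and 5.31, 5.15 and 5.69 in knockdown libraries. MARS itself was 48.6, 48.8 and 48.9 FPKM in control and 49.0, 48.3 and 49.5 FPKM in knockdown libraries (adjusted p = 0.892). Ratios of WARS to WARS2 were also lower without overlap (2.26 ± 0.110 in control and 1.94 ± 0.0124 in knockdown libraries). So were those of IARS to IARS2 and EPRS to EARS2, whereas CARS to CARS2 was higher without overlap. The arginine pair kept overlapping ratios (2.46 ± 0.0866 in control and 2.48 ± 0.0897 in knockdown libraries). An exact permutation test of each ratio over the 3 and 3 libraries (two-sided) cannot go below p = 0.1, and over the 17 pairs tested the smallest Benjamini-Hochberg adjusted p was 0.213, so none passed.

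**Figure D4:**
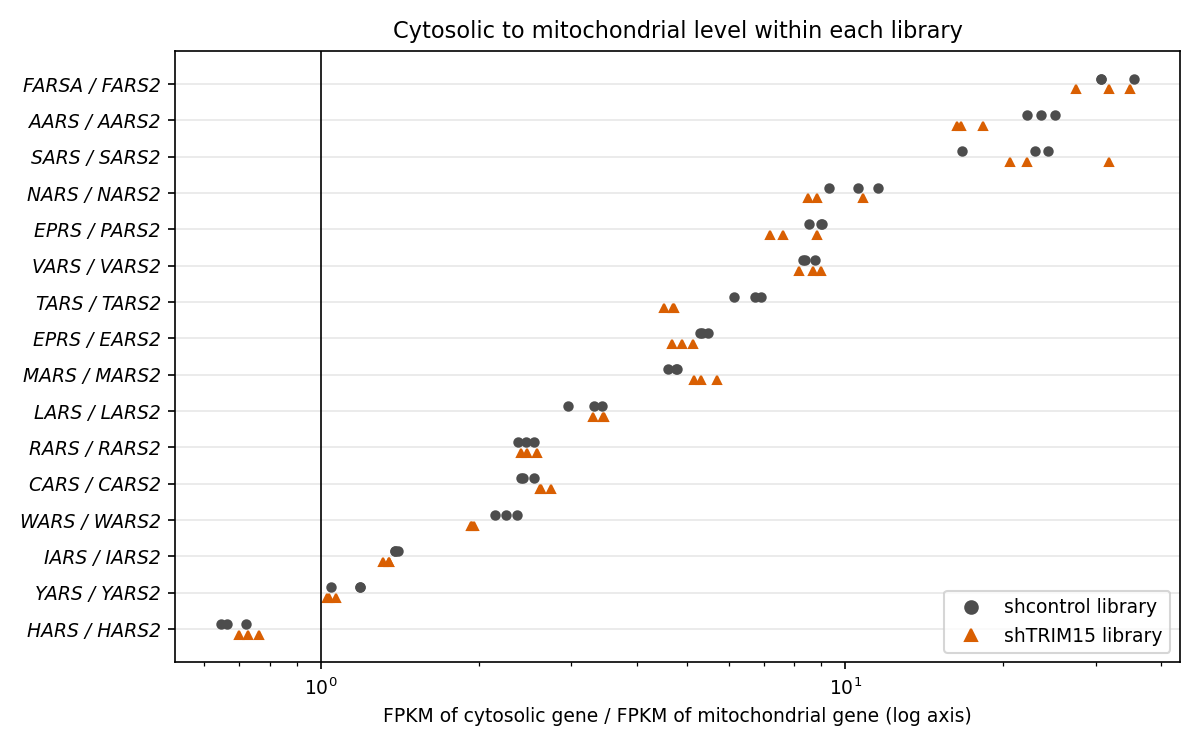
FPKM of each cytosolic synthetase gene divided by that of its mitochondrial counterpart in the same library, on a log axis; circles are control and triangles knockdown libraries, and the vertical line marks equal levels. HARS and HARS2 lie left of the line in all 6 libraries, and the triangles of TARS to TARS2 and AARS to AARS2 lie left of their circles. Those of WARS to WARS2, IARS to IARS2 and EPRS to EARS2 also lie left without overlap. Those of MARS to MARS2 and CARS to CARS2 lie right without overlap.

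HARS and HARS2 lie head to head on chromosome 5 and share their start region, and both rose. Their 5′ ends overlap by 436 bases in GENCODE 29. The bases between the RefSeq start sites of the genes (140691370 for HARS on the minus strand and 140691455 for HARS2 on the plus strand) are printed because they lie upstream of both. They hold 59.5% G and C. Capitals mark matches to CCGGAAG, an ETS-type word, read on either strand.
HARS to HARS2, chr5:140691371-140691454, GRCh38, plus strand: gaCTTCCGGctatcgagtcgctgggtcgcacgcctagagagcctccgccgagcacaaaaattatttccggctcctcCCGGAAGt
The word occurs in 10.3% of 35116 RefSeq start windows (250 bases before to 50 after a start), in a window of 9 of the 16 cytosolic and of 7 of the 14 mitochondrial members that have one. HARS and HARS2 overlap each other on opposite strands over 8.38% and 11.7% of their exon bases, so reads there can be told apart only if strand was used in counting, which is not given.

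RARS2 and its head-to-head neighbour ORC3, a subunit of the origin recognition complex, both fell. ORC3 was 14.5, 15.2 and 14.3 FPKM in control and 12.4, 12.8 and 13.5 FPKM in knockdown libraries (log2 fold change -0.17 with SE 0.0388, adjusted p = 0.0241). As with RARS2, its groups did not overlap, and its call was lost under 7 of 15 alternatives, among them leaving out control replicate 1 (0.0544) or 2 (0.0750) and knockdown replicate 1 (0.0748) or 2 (0.0738). The 63 bases between the 5′ ends of the genes are printed for the same reason as above. They hold 73.0% G and C and match none of the 3 words searched (CCGGAAG, TGATGNAA, and the NRF1 motif).
RARS2 to ORC3, chr6:87590004-87590066, GRCh38, plus strand: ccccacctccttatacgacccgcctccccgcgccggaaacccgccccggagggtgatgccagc
At the other members with such a neighbour, no pair passed the threshold together. DDX19B beside AARS had a log2 fold change of 0.038 (adjusted p = 0.590), and TERF2IP beside KARS one of -0.019 (adjusted p = 0.675). MRPS12, a protein of the mitochondrial ribosome that shares its start with SARS2, was 37.3, 38.3 and 39.1 FPKM in control and 39.8, 42.8 and 42.7 FPKM in knockdown libraries (adjusted p = 0.0471). This call was lost under 8 of 15 alternatives, among them leaving out control replicate 1 (0.118), 2 (0.108) or 3 (0.0677) and knockdown replicate 2 (0.134) or 3 (0.139).

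Synthetase genes known as ATF4 targets were called in both directions, the fall resting on AARS. Of 13 such cytosolic synthetases, 4 rose (CARS, SARS, VARS and YARS), 1 fell (AARS) and 8 did not pass, with a median log2 fold change of -0.018. Only the CARS call held under all 15 alternatives, that of AARS under 6, of SARS and YARS under 8 each and of VARS under 11. Of the 7 other cytosolic genes, 2 rose (HARS and KARS) and 2 fell (DARS and RARS), with a median of 0.013. The shares called were 38.5% of the 13 and 57.1% of the 7, beside 39.6% of protein-coding genes with a mean of 20 to 200 FPKM. Among 14 tested genes of ATF4 and the wider amino acid response, 8 rose and 0 fell, with a median of 0.11, beside 8.93% higher and 10.1% lower over all genes tested. Of this list 57.1% were called, beside 39.6% of protein-coding genes with a mean of 20 to 200 FPKM. This list was chosen with earlier results of these data known, so its direction is a description and not independent evidence. They included ATF4 itself (log2 fold change 0.11 with SE 0.0222, adjusted p = 0.0137), the stress factor DDIT3 (log2 fold change 0.52 with SE 0.0722, adjusted p = 0.00390) and SESN2, which signals low leucine to mTORC1 (log2 fold change 0.45 with SE 0.0491, adjusted p = 0.00158). The ATF4 call was lost with no variance trend (0.0749) and without control replicate 2 (0.0503), knockdown replicate 1 (0.0519) or knockdown replicate 3 (0.0531). Those of DDIT3 and SESN2 held under all 15 alternatives. SLC7A5, also among the 8, was lost without control replicate 1 (0.0691), 2 (0.0666) or 3 (0.0727) or knockdown replicate 2 (0.0872) or 3 (0.0804). TRIB3, PHGDH, SLC3A2 and STC2 passed with any library left out (limma adjusted p up to 0.0355). DDIT3 overlaps MARS on the other strand. ASNS, the asparagine synthetase and a standard ATF4 target, was below the filter at 0.200 FPKM in control and 0.446 FPKM in knockdown libraries, and 44.6% of its exon bases are shared with another gene.

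The C/EBP-ATF response element that ATF4 binds with a C/EBP partner can be written as TGATGNAA. The word, on either strand, was found in a RefSeq start window of 7 of 16 cytosolic members with a window and 1 of 14 mitochondrial members, and in 3.62% of all 35116 windows (a member can have several). These 8 matches are printed with 10 bases either side, 5′ to 3′ on the strand named, with the element in capitals. They show the letter at N and the flanking bases, since the search fixed every other letter of the word. Positions are from the RefSeq windows on GRCh38.p14.
AARS chr16:70289676-70289703 (+): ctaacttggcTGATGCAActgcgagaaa
CARS chr11:3057408-3057435 (+): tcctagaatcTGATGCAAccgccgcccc
GARS chr7:30594835-30594862 (-): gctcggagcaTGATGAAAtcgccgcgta
IARS chr9:92293693-92293720 (+): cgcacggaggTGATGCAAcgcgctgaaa
MARS chr12:57488054-57488081 (-): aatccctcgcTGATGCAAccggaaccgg
NARS chr18:57621805-57621832 (-): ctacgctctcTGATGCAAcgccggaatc
TARS chr5:33440957-33440984 (-): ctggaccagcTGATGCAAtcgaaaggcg
YARS2 chr12:32756077-32756104 (-): tccacactgcTGATGGAAaaattaagtt
Of the 7 cytosolic genes with the word, 6 read TGATGCAA and GARS reads TGATGAAA, whereas YARS2 reads TGATGGAA. Of these 7, CARS rose (0.22), AARS fell (-0.081), and GARS, IARS, MARS, NARS and TARS did not pass (log2 fold change -0.052 to 0.0052), for a median of -0.020. Of the 9 cytosolic genes with a window but without the word, 3 rose (HARS, KARS and SARS) and 1 fell (RARS). The shares called were 28.6% with the word and 44.4% without it, beside 39.6% of protein-coding genes with a mean of 20 to 200 FPKM. AARS2, DARS, LARS, VARS, VARS2 and YARS were not searched. A match is a description of letters and not evidence of binding.

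**Figure D5:**
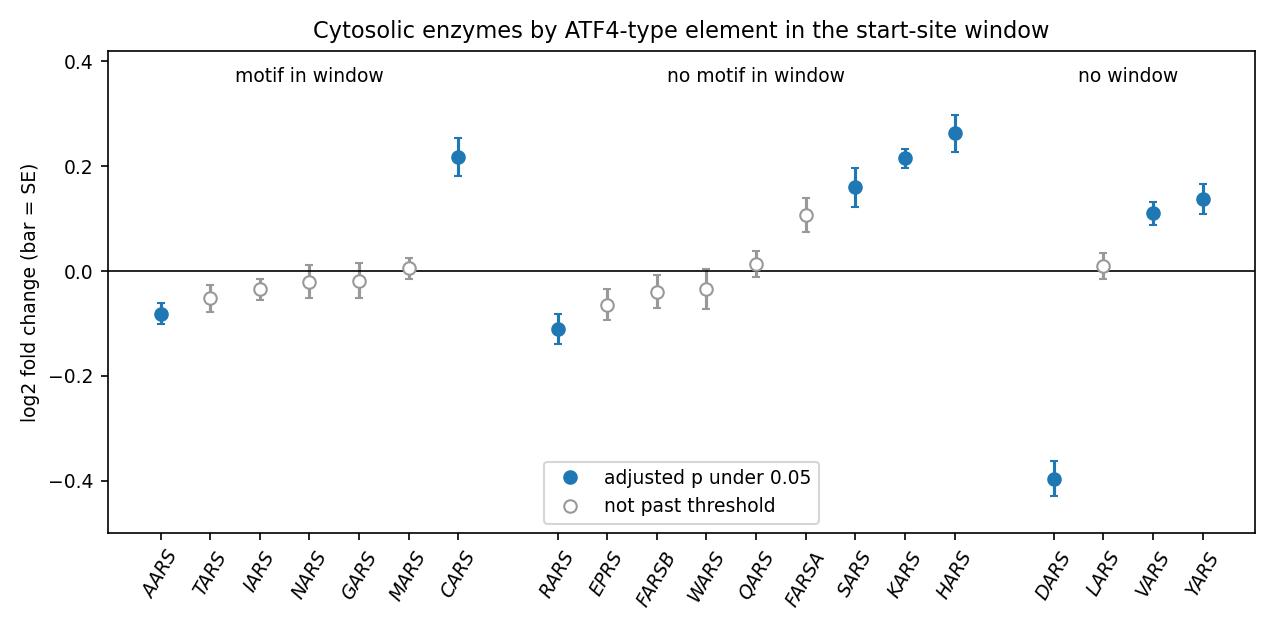
Log2 fold change with standard error of the 20 cytosolic synthetase genes, split by whether the word TGATGNAA occurs in a RefSeq start window (7 genes), does not (9 genes), or no window was searched (4 genes); filled points passed an adjusted p of 0.05. Both searched groups hold points above and below 0, with medians of -0.020 and 0.013.

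The other genes of tRNA charging held few calls, at a share below that of all genes tested, a difference that was not tested. Of 29 listed genes (scaffolds, elongation factors, editing and transfer enzymes, tRNA processing and export), 27 were tested, 0 rose and 3 fell. That is 11.1% called, beside 19.0% of all genes tested (8.93% higher and 10.1% lower). Their median log2 fold change was -0.026. The directions depended on scaling and model: 1 rose and 1 fell with libraries scaled to the same sum, 1 rose and 2 fell with quantile scaling, and 3 rose and 4 fell with voom. DTD2, which removes wrongly charged amino acids from tRNA and shares 16.3% of its exon bases on the same strand with AL139353.1, was 65.0, 64.7 and 65.4 FPKM in control and 58.2, 56.6 and 56.9 FPKM in knockdown libraries (log2 fold change -0.18 with SE 0.0198, adjusted p = 0.00160). EEF1A1, the factor that carries charged tRNA to the ribosome, went from 1715 ± 13.3 to 1632 ± 30.9 FPKM (log2 fold change -0.072 with SE 0.0182, adjusted p = 0.0348), but under quantile scaling its direction was reversed (log2 fold change 0.065, adjusted p = 0.00542). SEPSECS, which completes selenocysteine on its tRNA, went from 6.94 ± 0.0566 to 6.06 ± 0.308 FPKM (log2 fold change -0.17 with SE 0.0423, adjusted p = 0.0336) and was lost when any of the 6 libraries was left out (adjusted p 0.0521 to 0.0892). EEF1A1 was also lost when any library was left out (adjusted p 0.0545 to 0.0865).

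Some values have a shared source. SARS2 shares 46.2% of its exon bases with AC011455.2 on the same strand, and VARS2 shares 22.0% with GTF2H4, and how reads in shared bases were counted is not given. More than 10% of exon bases overlap a gene on the other strand in MARS, WARS, HARS2 and SARS2. Of 14 pseudogenes named after a member, 3 were above 0, the highest being KARSP2 at 0.761 FPKM, against 59.7 FPKM for KARS.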

How the data were processed

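RNA sequencing covered 6 Huh7 libraries, 3 per group. The deposited table holds FPKM values that the authors computed, with a gene length per row. A directional kit was used, per the labels' protocols. The aligner, the counter and the use of strand are not given in the sources used here. The submitters' processing notes list mm10, a mouse build, but all 58735 rows equal human GENCODE 29 on GRCh38 in identifier, start, end and strand, and GRCh38 coordinates are given. FPKM times length gave whole reads for 100% of values (tolerance 0.01), 17332508 to 19556855 per library. These reads were used for the voom alternative and for depth. The step size differed from the read sum by -0.370 to -0.359% in control and 1.04 to 1.27% in knockdown libraries, so the values carry a scaling factor.

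Values were analysed as log2(FPKM + 1), which understates changes of low genes, for the 14847 genes with at least 0.5 FPKM in 3 of 6 libraries. Groups were compared with limma 3.58.1 in R 4.3.3, two-sided and with a trend of variance on mean. P-values were adjusted by Benjamini-Hochberg over every gene tested, with 0.05 as the threshold. All adjusted p of genes come from limma. The procedure was tested on simulated data in 5 runs. Of the calls, 8.86% were false, above the 0.05 threshold. It recovered 14.0% of genes changed 1.2-fold and 78.0% of those changed 2-fold, so a gene that did not pass can still differ. The simulation held fewer changes than the data, with a mean of 133.2 calls per run against 2824, so these rates may not carry over. The members and lists were chosen with earlier results of these data known. Values in every library are given for members past the threshold, for their counterparts in the other compartment, and for the most and least abundant member of each compartment. Other members are given by counts and ranges. Members past the threshold are named from the list of other tRNA charging genes. ORC3, MRPS12 and the nearest misses were chosen after their values were seen. Head-to-head neighbours are genes on opposite strands with 5′ ends within 1000 bases. RefSeq start windows (GRCh38.p14) were matched by gene identifier for 30 of 36 members. The 15 alternatives changed the pseudocount, filter, scaling or variance model, added a replicate block, or left out each library.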

Additional observations from a re-analysis of the deposited data

How the results depend on the processing

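Of the 15 member calls, 6 held under all 15 alternatives (CARS, DARS, HARS, KARS, AARS2 and TARS2), 9 were lost under at least 1, and 0 changed direction. Leaving out 1 library at a time gave 1770 to 2339 calls over all genes (2824 with all 6 libraries), 4 to 8 among cytosolic members (9), 3 to 5 among mitochondrial members (6) and 1 to 2 among other tRNA charging genes (3). Without a variance trend 4 cytosolic members passed. Among the other tRNA charging genes, 1 passed with no filter on low values and 7 with voom (3 higher and 4 lower). A fit with the replicate number as a block gave 1913 calls over all genes, 4 cytosolic, 4 mitochondrial and 2 other tRNA charging genes, and a TRIM15 log2 fold change of -0.75. The numbers do not pair the samples by the labels, and same-numbered libraries deviated together only weakly (r = 0.0125, 0.00862 and 0.0133 across genes, other pairs -0.0142 to 0.0018). Each control library correlated best with its own number, but all of these r values were very small. Whether the samples are paired was not tested. The cause of the differences in calls between settings was not tested. The block and the fits without a library also had fewer residual degrees of freedom.

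Small differences changed sign in genes that did not pass. The log2 fold change of GARS was 0.0125 with libraries scaled to the same sum, 0.00966 with quantile scaling and 0.00333 with voom. NARS was 0.0109 at the same sum and 0.00224 with voom. TERF2IP was 0.0113 at the same sum and 0.00191 with voom. Leaving out 1 library at a time gave ranges that crossed 0 for GARS (-0.0447 to 0.00508), NARS (-0.0468 to 0.0113), LARS (-0.00481 to 0.0210), MARS (-0.00325 to 0.0146), QARS (-0.00369 to 0.0319), SARS2 (-0.0926 to 0.0776) and AIMP1 (-0.0118 to 0.0482). EEF1A1, a called gene, was 0.0652 with quantile scaling. EEF1E1, which did not pass, passed with the replicate block (adjusted p = 0.0171). Depth limits SARS2 most, at 53 to 86 reads per library.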

Other observations

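EEF1G, a subunit of the elongation factor that recharges EEF1A1 with GTP, is listed at 0 in all 6 libraries. Of its exon bases, 99.9% are shared on the same strand with AP002990.1, which is listed at 0.298, 0.501 and 0.477 FPKM in control and 0.388, 0.623 and 0.603 FPKM in knockdown libraries. AARSD1, an editing protein for wrongly charged tRNA, was below the filter, and shares 34.2% of its exon bases with PTGES3L-AARSD1, which is listed at 0 in every library.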
